A study of Mus musculus with 11 samples.

Results

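A set of 8 genes that mark macrophages resident around blood vessels was followed in sympathetic ganglia of aged mice: Mrc1, Cd163, Folr2, F13a1, Pf4, Csf1r, Adgre1 and Ms4a7. They were chosen by name with earlier results of these arrays known, so their counts are no independent evidence. Every probe set annotated to 1 of them alone was used. All 8 genes were among the 12393 on the array, with 10 probe sets of the 20380 that carry 1 gene symbol. All 8 also passed the filter on low signals described below and so stood among the 8433 genes tested.

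Laser-captured, fresh-frozen ganglia of 78-week-old male C57BL mice on normal chow gave 11 Affymetrix arrays, 6 of genotype apoE-/- and 5 wild-type. The apoE-/- animals, called Apoe-deficient here, lack apolipoprotein E in every cell, a lipid carrier whose loss leads to atherosclerosis. The labels do not say which ganglia were taken, whether animals were pooled or which array came from which animal, so each p-value reflects the spread between samples alone, and that spread may be technical. The Apoe signal was 7.2 to 268.2 in the Apoe-deficient arrays and 11830.3 to 19649.2 in the wild-type arrays, on the side each label gives. Markers of the labelled tissue were present: 9 of 9 noradrenergic neuron genes and 8 of 8 satellite glia genes on the array passed the filter.

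Perivascular macrophages lie along the walls of small vessels, take up proteins, haemoglobin complexes and lipid from their surroundings, and survive on signals through the receptor that Csf1r encodes. In peripheral nerves and ganglia such cells are a standing population, distinct from monocytes that arrive during inflammation. Mrc1 (the mannose receptor CD206), Cd163 and Folr2 serve uptake. F13a1 and Pf4 encode secreted proteins that platelets also carry. Adgre1 encodes the surface antigen F4/80, and Ms4a7 a membrane protein of tissue macrophages.

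Values are deposited signals where named so, and otherwise log2(signal + 16) after quantile normalisation. A difference is the Apoe-deficient minus the wild-type mean on that log2 scale, with its standard error (SE), and it understates changes of low signals. A gene is said to have risen or fallen where the limma p-value, adjusted over all 8433 genes by the Benjamini-Hochberg method, lay below 0.05. By that rule 2 of the 8 genes rose, Mrc1 and Csf1r, and 0 fell. Over all genes tested 1.26% rose and 1.93% changed in either direction. The other 6 did not pass, and their differences ran from 0.07 for Adgre1 to 0.90 for Cd163. The median difference of the 8 was 0.57, and that of all genes tested -0.04. Counts of genes with an unadjusted p below 0.05 are given below without the share over all genes. With all arrays, an unadjusted limma p of 0.049 went with an adjusted p of 0.25. Such values were thus common among all genes, and these counts alone show no excess. In whole ganglia, more cells of a type and more RNA per cell cannot be told apart.

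**Figure D1:**
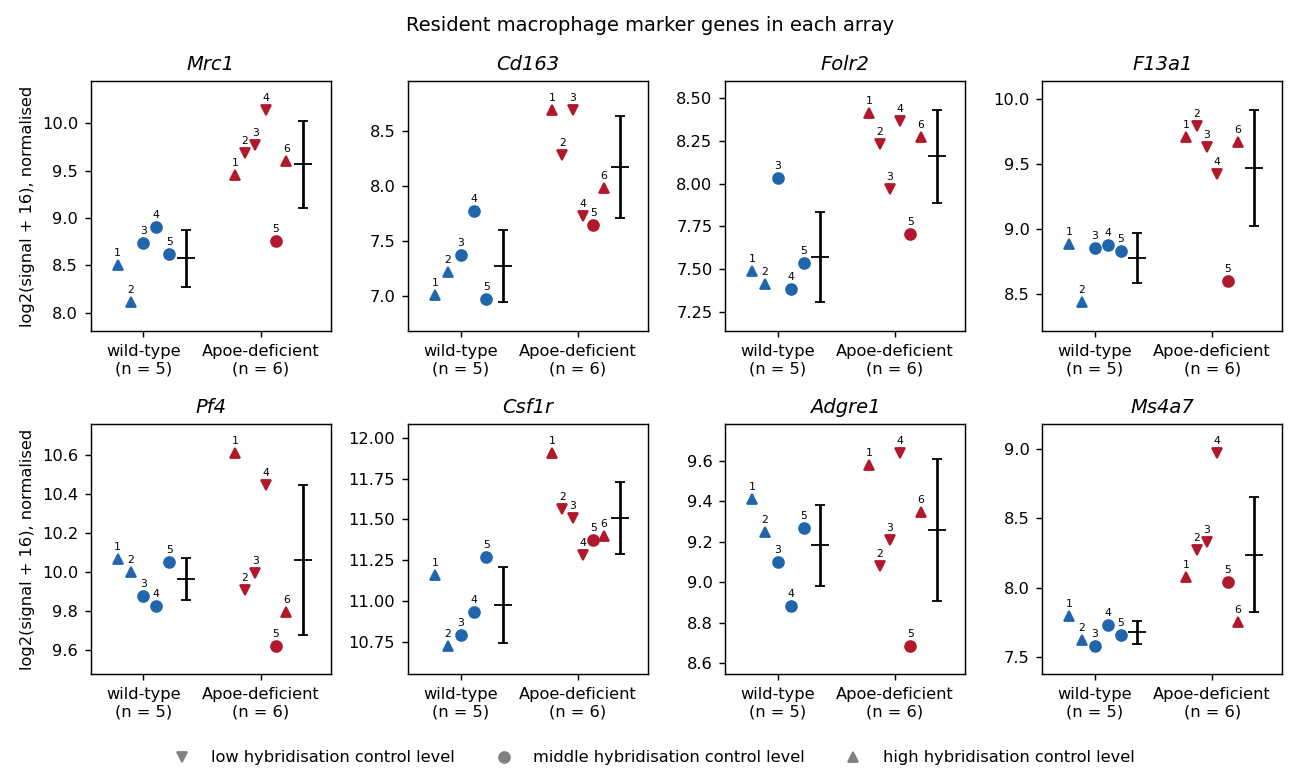
Normalised log2(signal + 16) of each marker gene (vertical axes, each with its own scale) in the 5 wild-type (blue) and 6 Apoe-deficient (red) arrays. Numbers are replicate numbers, marker shapes give the level of the hybridisation controls, and black bars are the mean ± SD of each group. Csf1r alone shows no overlap of the groups, and Apoe-deficient replicate 5 is the lowest red point in 6 of the 8 panels.

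The RefSeq promoter windows of Mrc1, Cd163 and Pf4 are shown because these genes differed by 0.99, 0.90 and 0.10 and each has 1 annotated window. The build is GRCm38.p6, the strand is plus for all 3, and each sequence is the 250 bases before the gene's start, 5′ to 3′: chr2:14229164-14229413 for Mrc1, chr6:124304401-124304650 for Cd163 and chr5:90772185-90772434 for Pf4. Capitals mark GAGGAA, the core of the binding site of PU.1, the factor that governs the macrophage lineage, here on the opposite strand and so read as TTCCTC.
Mrc1: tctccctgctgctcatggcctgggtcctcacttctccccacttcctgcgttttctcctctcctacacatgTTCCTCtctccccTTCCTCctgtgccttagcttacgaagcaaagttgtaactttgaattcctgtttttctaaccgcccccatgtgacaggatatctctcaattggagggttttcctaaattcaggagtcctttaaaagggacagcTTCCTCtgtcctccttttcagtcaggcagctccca
Cd163: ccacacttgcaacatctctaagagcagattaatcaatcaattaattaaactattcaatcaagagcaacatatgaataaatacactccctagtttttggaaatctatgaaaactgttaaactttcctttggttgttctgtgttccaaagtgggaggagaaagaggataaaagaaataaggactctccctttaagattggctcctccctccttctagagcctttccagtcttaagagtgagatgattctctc
Pf4: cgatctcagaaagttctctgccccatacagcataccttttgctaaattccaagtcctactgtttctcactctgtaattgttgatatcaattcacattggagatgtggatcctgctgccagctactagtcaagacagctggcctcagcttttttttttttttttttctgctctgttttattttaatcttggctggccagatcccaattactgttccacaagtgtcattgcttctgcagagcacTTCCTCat

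The core was found 3 times before Mrc1, once before Pf4 and nowhere in the Cd163 window. It was searched on both strands of the table's 300-base windows, which also hold 50 bases past the start, and 28.28% of all 32851 windows contain it. Of the 6 members matched in the table, 4 held it in at least 1 window: Mrc1, Pf4, F13a1 and Ms4a7. Counted by window, the unit of that share, 5 of the 9 windows of the 6 matched members held it. For Ms4a7 the only site lay past the start. The letters TGCTGA, shared by many sites of the macrophage factors of the MAF family, stood among the matched members in windows of Folr2 alone, and in 19.48% of all windows. No window of these genes held both words. Csf1r and Adgre1 were not matched in this table.

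Csf1r encodes the receptor for the growth factors Csf1 and Il34, on which macrophages depend. Its probe set of highest mean signal had deposited signals of 2517.6 at the lowest, 2796.15 at the median and 3981.3 at the highest in the Apoe-deficient arrays. The wild-type arrays gave 2214.1, 1651.9, 1748.3, 1976.3 and 2444.6 in replicates 1 to 5. The groups did not overlap, but the margin between the lowest Apoe-deficient and the highest wild-type array was small. All Apoe-deficient arrays lay above all wild-type arrays for 1.46% of the genes tested, and the groups did not overlap, in either direction, for 2.96%.

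Csf1r rose by 0.53 (SE 0.13, limma adjusted p = 0.0498), a 1.44-fold difference with a 95% interval of 1.19 to 1.74. This call stood at the edge of the threshold. It ended when any of replicates 2, 3 and 4 of the Apoe-deficient group, or 1, 2, 3 and 4 of the wild-type group, was left out, with differences of 0.46 to 0.57 and limma adjusted p-values of 0.054 to 0.14.

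Both other probe sets of Csf1r lay higher in Apoe-deficient arrays too. The second had deposited signals from 898.8 to 1195.8 (median 959.7) in Apoe-deficient arrays against 737.6, 564.2, 394.5, 541.8 and 679 in wild-type replicates 1 to 5. These groups stood further apart than those of the first probe set, at 0.76 (SE 0.15). Tested with every single-gene probe set and no filter, it passed (limma adjusted p = 0.034), where 0.55% of all probe sets were called higher, and the first gave a limma adjusted p of 0.081. The Apoe-deficient arrays all lay above the wild-type arrays for 1.14% of those probe sets. The third had 368.2 to 559.9 against 315.3 to 406.8, so the groups overlapped, and it differed by 0.35 (SE 0.13, limma adjusted p = 0.22 in that test).

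Neither ligand gene of the receptor passed the test. Il34 differed by -0.02 (SE 0.14, limma adjusted p = 0.95) and Csf1 by -0.08 (SE 0.13, limma adjusted p = 0.76). Of 16 measured genes of the receptor's axis, which included the ligands, lineage factors and signalling partners, 2 rose and 0 fell: Csf1r itself and Tyrobp, the adaptor that carries signals of many myeloid receptors (0.78, SE 0.16, limma adjusted p = 0.025). The median of the 16 was 0.05. Spi1, which encodes PU.1, differed by -0.01 (SE 0.20) and Irf8, another myeloid transcription factor, by 0.54 (SE 0.20, limma adjusted p = 0.17). Tyrobp lost its call when Apoe-deficient replicate 3, or either of wild-type replicates 2 and 3, was left out, where its limma adjusted p reached 0.074, and with the control levels described below as a block (0.60, limma adjusted p = 0.25).

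Mrc1, whose product binds mannose-bearing glycoproteins for uptake, showed the widest difference of the 8 genes. Deposited signals were 422.1 at the lowest, 794.35 at the median and 1139.5 at the highest in Apoe-deficient arrays. Wild-type replicates 1 to 5 had 351.3, 258.4, 416.4, 447.9 and 385.5. Of the 6 Apoe-deficient arrays 5 lay above every wild-type array, and replicate 5 lay inside the wild-type range.

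Mrc1 rose by 0.99 (SE 0.21, limma adjusted p = 0.024), a 1.99-fold difference with a 95% interval of 1.47 to 2.70. Without Apoe-deficient replicate 5 it was 1.16 (SE 0.16, limma adjusted p = 0.0023). The call was lost when replicate 2 or 3 of the Apoe-deficient group, or 1, 2 or 5 of the wild-type group, was left out, where the difference stayed between 0.88 and 1.01 and the limma adjusted p between 0.054 and 0.076.

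Cd163, the scavenger receptor that clears haemoglobin bound to haptoglobin, came next in size. Its deposited signal ran from 189.6 through a median of 276.2 to 392.2 in Apoe-deficient arrays. In wild-type replicates 1 to 5 it was 118.4, 137.4, 155, 190.6 and 117.7. Apoe-deficient replicate 5 and wild-type replicate 4 met at nearly the same signal, and 4 of 6 Apoe-deficient arrays lay above all wild-type arrays after normalisation.

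The Cd163 difference was 0.90 (SE 0.22), a 1.86-fold ratio with a 95% interval of 1.35 to 2.58, and its limma adjusted p of 0.0505 just missed the threshold. It passed when any of Apoe-deficient replicates 4, 5 and 6, or the fourth wild-type replicate, was left out, where the differences were 0.94 to 1.02 and the limma adjusted p 0.030 to 0.049. Over the 11 fits without 1 array, 0.64% to 1.78% of all genes rose. Among 12 measured genes of haem and iron handling 0 were called by limma (1 with an unadjusted p below 0.05, median 0.13). Limma gave an adjusted p of 0.26 for the biliverdin reductase gene Blvrb (0.30) and 0.13 for the iron transporter gene Slc11a2 (-0.39). Hmox1, which breaks down haem, did not pass the filter.

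Folr2, the folate receptor of macrophages, had deposited signals from 199 to 319.5 (median 297.9) in Apoe-deficient arrays. Wild-type replicates 1 to 5 had 167.7, 157, 251.3, 139.1 and 177.4. Wild-type replicate 3 stood apart from its group and inside the Apoe-deficient range. The difference was 0.59 (SE 0.16, limma adjusted p = 0.076). It passed without Apoe-deficient replicate 5 (0.68, limma adjusted p = 0.034) and without wild-type replicate 3 (0.70, limma adjusted p = 0.048). Of 7 measured genes of folate transport and use 0 were called by limma (3 with an unadjusted p below 0.05, Folr2 included). Their median was -0.22. The folate carrier gene Slc19a1 had the opposite sign to Folr2 (-0.56, SE 0.15, limma adjusted p = 0.068).

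F13a1 encodes the A subunit of coagulation factor XIII, the enzyme that crosslinks fibrin. Deposited signals in Apoe-deficient replicates 1 to 6 were 805.7, 898.6, 797.9, 676.1, 376.1 and 788.8. In wild-type replicates 1 to 5 they were 457.9, 326, 452.3, 437.5 and 447.8. All Apoe-deficient arrays but replicate 5 exceeded every wild-type array, and replicate 5 lay below 4 of the 5.

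That array set the call of F13a1. With it the difference was 0.69 (SE 0.19, limma adjusted p = 0.072), and without it 0.87 (SE 0.12, limma adjusted p = 0.0021). Of 6 measured genes of coagulation and fibrinolysis 0 were called by limma, with F13a1 the only one of an unadjusted p below 0.05 and the crosslinking enzyme gene Tgm2 at 0.28 (SE 0.20, limma adjusted p = 0.42).

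Pf4, a chemokine known from platelet granules and also made by resident macrophages, gave widely overlapping signals in both groups. Deposited signals were 776.5 to 1538.4 (median 1006.8) in Apoe-deficient arrays and 1034.3, 977.8, 931.4, 886.7 and 1029.8 in wild-type replicates 1 to 5. The wild-type range lay inside the Apoe-deficient one, in which replicates 1 and 4 were high and replicate 5 low. The difference was 0.10 (SE 0.16, limma adjusted p = 0.75), with a 95% interval of 0.84- to 1.36-fold.

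Adgre1, which encodes F4/80, an antigen widely used to stain mouse macrophages, overlapped between groups as well. Its deposited signal was 400.8 to 791.1 (median 605.1) in Apoe-deficient arrays and 660.4, 581, 543.2, 440.5 and 607.8 in wild-type replicates 1 to 5. The lowest and the highest array of all 11 were both Apoe-deficient. The difference was 0.07 (SE 0.16, limma adjusted p = 0.82), with a 95% interval of 0.83- to 1.34-fold. Both intervals leave room for a modest change in either direction.

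Ms4a7 had deposited signals from 213.4 to 479.5 (median 274.3) in Apoe-deficient arrays against 210, 182.8, 179.9, 183.5 and 193.7 in wild-type replicates 1 to 5. The wild-type arrays were close together, and Apoe-deficient replicate 4 was the highest. The deposited ranges stood just apart, but after normalisation Apoe-deficient replicate 6 lay inside the wild-type range. Its difference of 0.56 (SE 0.18, limma adjusted p = 0.12) did not pass, and 5 of 6 Apoe-deficient arrays lay above all wild-type arrays after normalisation.

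Of the 7 measured members of the Ms4a family, which code for related proteins with several membrane spans, 2 rose and 0 fell. These were Ms4a6b (0.70, SE 0.16, limma adjusted p = 0.038) and Ms4a4d (1.04, SE 0.25, limma adjusted p = 0.0498). The wild-type mean of Ms4a4d, 6.67, lay below the filter's cut of 6.98, which the Apoe-deficient arrays alone could meet. The 7 include Ms4a7, and their median of 0.56 was the difference of Ms4a7 itself. Both calls held in only 3 of the 11 fits that left out an array: for Ms4a6b those without Apoe-deficient replicate 1, Apoe-deficient replicate 2 and wild-type replicate 4, and for Ms4a4d those without Apoe-deficient replicates 5, 6 and wild-type replicate 4. Elsewhere the limma adjusted p rose to 0.11 and 0.13. With the control levels described below as a block neither was called (Ms4a6b 0.76, limma adjusted p = 0.17; Ms4a4d 0.70, limma adjusted p = 0.36).

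The differences of the 8 genes were also set against each other within arrays. Mrc1 minus Adgre1 was 0.92 higher in Apoe-deficient arrays (exact two-sided permutation p = 0.0065), and 5 of 6 of them lay above all wild-type arrays. Mrc1 minus Pf4 gave 0.89 (exact permutation p = 0.011), Cd163 minus Adgre1 0.82 (exact permutation p = 0.030) and Csf1r minus Adgre1 0.45 (exact permutation p = 0.052). Of all 28 pairs, 11 had an unadjusted p below 0.05, and after adjustment over the 28 none did, the smallest adjusted p being 0.11. The smallest possible p of this test is 0.0022, too large for a single pair to pass that adjustment by itself. Unequal change among the genes was thus neither established nor excluded.

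Within groups the genes varied together to different degrees. With each group centred on its own mean, Pearson's r over the 11 arrays was 0.85 for Pf4 with Adgre1 and 0.74 for Mrc1 with F13a1. It was 0.02 for Mrc1 with Csf1r and -0.16 for Csf1r with Ms4a7. The median of the 28 pairs was 0.38, and 25 were above 0. These values describe arrays that share a platform and a scaling step.

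**Figure D2:**
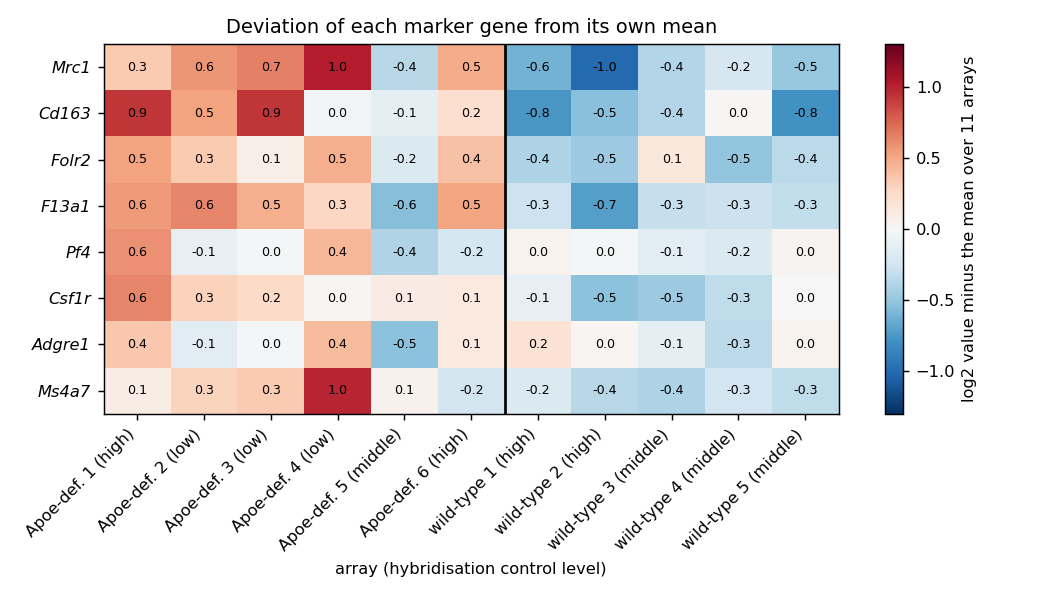
Log2 value of each marker gene (rows) minus its mean over all 11 arrays, by array (columns, with the level of the hybridisation controls), red above and blue below the mean. Apoe-deficient replicates 1 and 4 lie above the mean for 8 and 7 of the genes, and Apoe-deficient replicate 5 for 2, as few as wild-type replicate 1.

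Apoe-deficient replicate 5 stood apart from its group. The mean deviation of the 8 genes from their own means was -0.25 in it, against 0.17 to 0.50 in the other Apoe-deficient arrays and -0.45 to -0.26 in the wild-type arrays. It was the lowest Apoe-deficient array for 6 genes, all but Csf1r and Ms4a7. Without it 5 of the 8 genes rose (Mrc1, Cd163, Folr2, F13a1 and Csf1r), where 1.61% of all genes did.

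The arrays were divided into 3 levels by their spiked hybridisation controls, cut at the 2 widest gaps between the mean log2 control signals. This rule always gives 3 levels, so their number is no finding. The genotypes were spread unevenly over them. Mean control signals were 4306.82 to 4434.67 in Apoe-deficient replicates 2, 3 and 4 (low), 7380.61 to 8060.73 in Apoe-deficient replicate 5 and wild-type replicates 3 to 5 (middle), and 11698.8 to 17701.8 in the other 4 arrays (high). Spiked poly-A controls averaged 246.633 to 798.8 in the low level, and 1694.09 or more elsewhere. With the level as a block 0 of the 8 genes were called, where limma gave an unadjusted p below 0.05 for 4 of them and called 0.427% of all genes higher. The low level held Apoe-deficient arrays alone, so with the block its 3 arrays did not enter the genotype difference. In them genotype and level cannot be told apart. The fit without the 3 low arrays is nearly the same contrast and no separate check. It called 0 of the 8 genes (5 with an unadjusted p below 0.05, 0.308% of all genes called higher). Within the high level 0 were called again (5 with an unadjusted p below 0.05, 0.0356% of all genes called higher). Arrays weighted by their quality gave 6 calls among the 8 genes, where 3.44% of all genes were called higher. The share of all genes with an unadjusted p below 0.05 was not counted in these fits.

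The sizes moved less than the calls for part of the genes. With the block the differences were 0.70 for Mrc1, 0.81 for Cd163, 0.53 for Folr2, 0.48 for F13a1 and 0.56 for Csf1r, close to or below those without it. Ms4a7 was at 0.28, and Pf4 (-0.03) and Adgre1 (-0.09) changed sign. Within the high level, 2 arrays against 2, group means of Mrc1 differed by 1.22, Cd163 by 1.22, F13a1 by 1.03, Folr2 by 0.89, Csf1r by 0.71 and Ms4a7 by 0.20. Within the middle level, which holds Apoe-deficient replicate 5 alone against 3 wild-type arrays, the same genes gave 0.0011, 0.27, -0.26, 0.05, 0.37 and 0.38. The low level held 1 genotype.

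**Figure D3:**
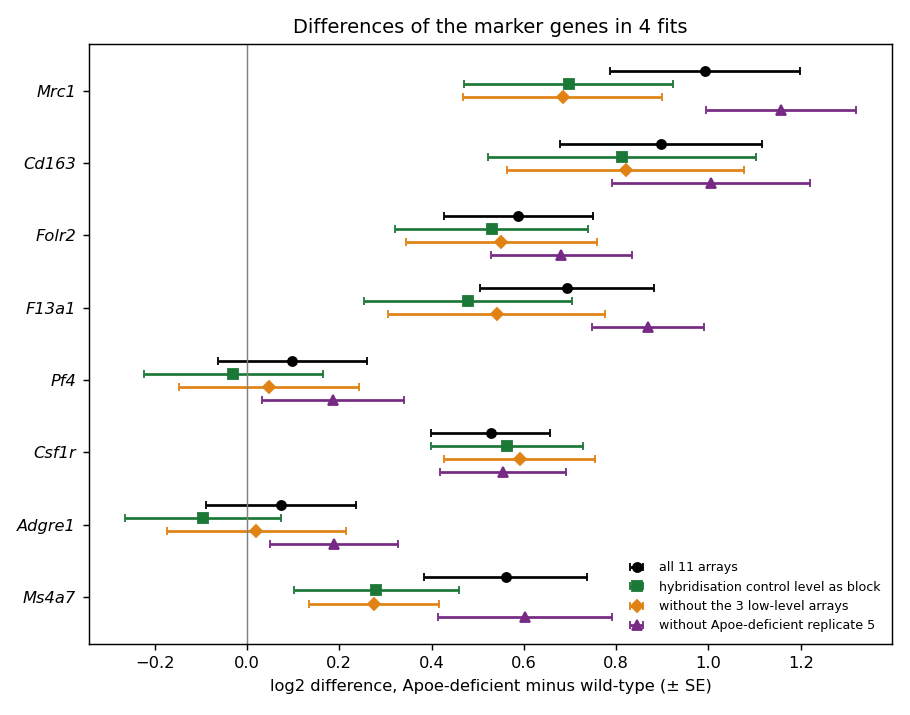
Log2 difference, Apoe-deficient minus wild-type (horizontal axis), of each marker gene in 4 limma fits; bars are ± 1 SE. The difference of Csf1r is nearly the same in all 4, at 0.53 to 0.59, that of Mrc1 ranges from 0.68 to 1.16, and Pf4 and Adgre1 lie near 0.

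A wider list of genes found in resident, vessel-associated macrophages was examined next. Of 23 measured genes 5 rose and 0 fell, 22 differences were above 0, and the median was 0.37. Over all genes tested 1.26% rose and 43.05% had a difference above 0. The chemokine gene Ccl8 (1.93, SE 0.20, limma adjusted p = 0.00023) and the lectin gene Clec10a (1.12, SE 0.21, limma adjusted p = 0.014) kept their calls in each of the 11 fits without 1 array. Cd209g (0.92), the endocytic adaptor gene Dab2 (0.79) and the lectin gene Clec4n (0.87) rose with limma adjusted p-values of 0.031 to 0.040 and each lost the call in at least 6 of those fits. Wild-type means of Cd209g (6.46) and Clec4n (6.93) lay below the filter's cut of 6.98, which the Apoe-deficient arrays alone could meet. Their place in the count is thus not independent of the difference. Lyve1, the hyaluronan receptor that names a subset of these cells, differed by 0.18 (SE 0.28, limma adjusted p = 0.73), and Stab1, a scavenger receptor gene, by 0.35 (SE 0.16, limma adjusted p = 0.24). Of 34 listed genes 30 had a single-gene probe set, and 7 of these, among them Siglec1 and Vsig4, did not pass the filter. The 5 calls became 2 when replicate 2 or 3 of the Apoe-deficient group, or 1, 2 or 3 of the wild-type group, was left out, 3 without Apoe-deficient replicate 4 and without wild-type replicate 5, and 1 (Ccl8) with the control level as a block or without the 3 low arrays.

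Genes common to most macrophages and other leukocytes were examined in the same way. Of 16 measured genes 7 rose and 0 fell, 16 differences were above 0, and the median was 0.74. Among all genes tested 1.26% rose and 43.05% had a difference above 0. The 7 were the leukocyte genes Cd53 (1.62) and Ptprc (limma adjusted p = 0.014), the protease gene Ctss (limma adjusted p = 0.0083), the lysozyme gene Lyz2 (1.19), the oxidase subunit gene Cyba (1.08), Mpeg1 (0.92) and Cd68 (0.82). The summed normalised signal of the 16 was 9829.7 to 14671.4 in Apoe-deficient arrays and 6272.03 to 7300.07 in wild-type arrays, without overlap. The same sum overlapped for the 8 marker genes, at 5219.54 to 8594.82 against 4340.66 to 5384.45. It also overlapped for the wider resident list, at 21730.2 to 34823.1 against 20007.7 to 22672.3. Aif1 (0.75, SE 0.21, limma adjusted p = 0.081) did not pass, nor did Mertk, an uptake receptor gene of resident macrophages (0.31, SE 0.19), or Cd14 (0.02, SE 0.18). The 7 calls became 3 (Cd53, Lyz2 and Cyba) with the control level as a block or without the 3 low arrays, and ran from 5 to 8 when 1 array was left out. Both lists, like the 8 marker genes, were drawn up with earlier results of these arrays known, so they are no independent evidence.

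**Figure D4:**
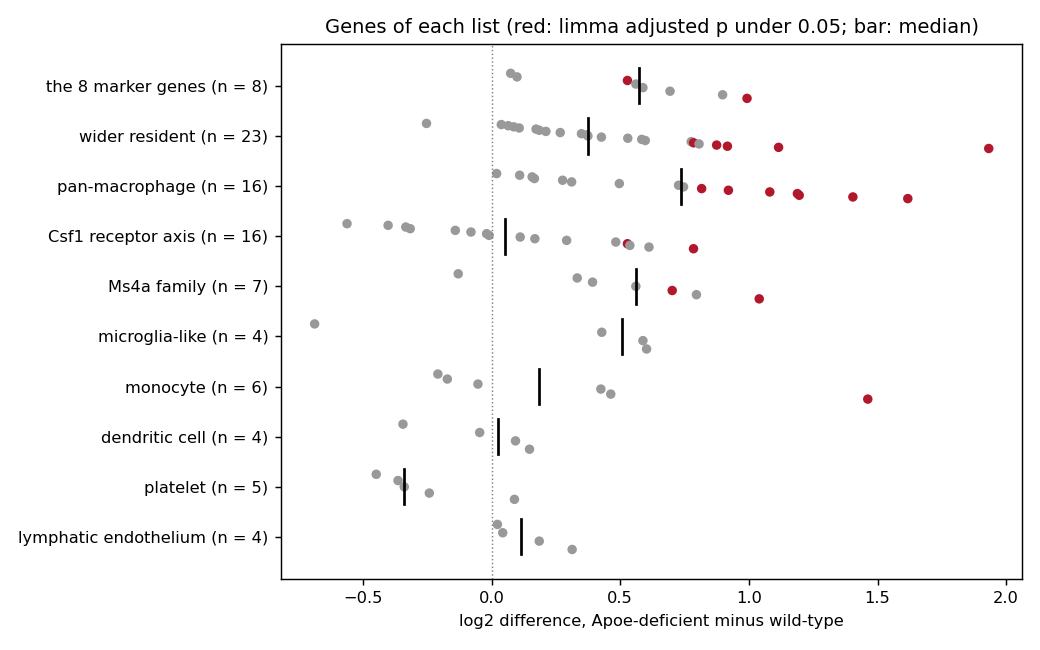
Log2 difference, Apoe-deficient minus wild-type (horizontal axis), of each measured gene in 10 lists; red points passed an adjusted p of 0.05 in limma, gray points did not, and black bars are list medians. The medians are 0.57 for the marker genes, 0.74 for the pan-macrophage list and -0.34 for the platelet list.

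Markers of other cells that use the same genes were checked. Platelets carry Pf4 and factor XIII: of 5 measured platelet genes 0 were called by limma (1 with an unadjusted p below 0.05), the median was -0.34, and their summed signal was 1136.54 to 1484.37 in Apoe-deficient arrays and 1355 to 1758.07 in wild-type arrays. The platelet receptor gene Gp1bb differed by -0.36 (SE 0.16) and Treml1, a platelet granule receptor gene, by -0.34 (SE 0.19). The platelet genes Ppbp, Gp9, Gp5, Itgb3, Clec1b and Alox12 did not pass the filter. Lymphatic endothelium transcribes Mrc1 and Lyve1: of 4 measured genes 0 were called by limma (0 with an unadjusted p below 0.05; median 0.11, summed signal 1571.3 to 2739.4 against 1531.05 to 2219.83), Pdpn, a membrane glycoprotein of these vessels, differed by 0.31 (SE 0.15), and Prox1, the factor that defines these vessels, did not pass the filter. Their part in the differences above was not tested.

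Of 6 measured monocyte genes 1 rose, Plac8 (1.46, SE 0.19, limma adjusted p = 0.0011), while Ccr2, the receptor that brings monocytes into tissue, differed by 0.46 (SE 0.26, limma adjusted p = 0.32) and Il1b by -0.21 (SE 0.20). Fn1 of the same list differed by 0.42 (SE 0.20, limma adjusted p = 0.25). The monocyte genes Chil3, Vcan and Clec4e did not pass the filter. Microglia-like genes gave 0 of 4 (4 with an unadjusted p below 0.05 in limma; median 0.51, with Olfml3 at 0.60, Fcrls at 0.43 and Tmem119 at -0.69) and dendritic cell genes 0 of 4 (0 with such a p; median 0.02). Summed signals were 2185.92 to 3089.14 against 1804.53 to 2154.3 for the monocyte list, 934.369 to 1368.67 against 855.304 to 1054.22 for the microglia-like list and 838.056 to 1172.2 against 960.577 to 1158.42 for the dendritic list, Apoe-deficient first. Their part in the differences of the marker genes was not tested.

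Other cells of the ganglion gave these counts. Mast cell genes rose in 4 of 8 (Cpa3, Tpsb2, Cma1 and Mcpt4), with a list median of 1.25. The others of that list did not pass: Fcer1a (1.01), Tpsab1 (0.15), Kit (0.02) and Gata2 (-0.46, limma adjusted p = 0.060). B and plasma cell genes rose in 1 of 6 (Jchain), with a list median of 0.32, and Pou2af1 (1.94, limma adjusted p = 0.075) did not pass. Wild-type means of Tpsb2 (5.48) and Mcpt4 (6.86) lay below the filter's cut of 6.98, which the Apoe-deficient arrays alone could meet. None of the 4 mast cell genes that rose was called by limma with the control levels as a block (differences 1.59 to 2.37, adjusted p 0.10 to 0.21). The same held without the 3 low arrays (1.59 to 2.30, limma adjusted p 0.15 to 0.27). When 1 array was left out, Cma1 lost its call without Apoe-deficient replicate 3 and wild-type replicate 5, and Mcpt4 without these and Apoe-deficient replicate 4. Jchain was called with the block (limma adjusted p = 0.018) and had a limma adjusted p of 0.052 without the low arrays. Limma called 0 of 11 endothelial genes (median 0.06, 3 with an unadjusted p below 0.05), 0 of 10 fibroblast genes (0.45, 4 such), 0 of 7 adipocyte genes (-0.74, 0 such), 0 of 9 noradrenergic neuron genes (0.01, 3 such) and 0 of 8 satellite glia genes (-0.20, 1 such). The single measured gene of T and natural killer cells, Nkg7, differed by 0.56 (SE 0.30). Summed signals were 3821.64 to 6949.22 in Apoe-deficient and 3266.68 to 4551.93 in wild-type arrays for the mast cell list, 7313.3 to 27457.1 against 5145.42 to 7080.27 for the B and plasma cell list and 12048.8 to 20143.8 against 9637.29 to 13701.5 for the fibroblast list. Their part was not tested. The wider family of Adgre1 had 8 measured adhesion receptor genes, Adgre1 among them. Limma called 0 of these (2 with an unadjusted p below 0.05, median 0.06). Of those 8, Adgre5, found on many leukocytes, differed by 0.40 (SE 0.14, limma adjusted p = 0.14). Adgrl1 had the opposite sign (-0.33, SE 0.14, limma adjusted p = 0.22).

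The genes most like the 8 within groups were found from their mean group-centred value over the 11 arrays. Highest was Clec10a (r = 0.95), a lectin of resident macrophages and dendritic cells that also rose. It was followed by Mettl7a1 (r = 0.93, difference -0.40), Pitrm1 (0.92, -0.04), the endothelial receptor gene Adgrl4 (0.92, 0.19) and Ahnak (0.92, 0.13), which did not pass the test between genotypes.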

How the data were processed

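RNA was measured on Affymetrix arrays labelled with biotin. The authors deposited linear intensity values per probe set, for which the submitters' processing notes name GCOS 1.4. Its algorithm, any detection calls and the genome build were not given in the sources used here. Every array had a mean, trimmed by 2% at each end, of 500.164 to 500.217, and a median signal of 163 to 188.6. Precision is limited by the number of arrays.

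The 64 control probe sets of 22690 were left out. After log2(signal + 16), arrays were quantile normalised. The filter asked for 5 or more arrays above the 40th percentile of the values. Where several single-gene probe sets of a gene passed, the one with the highest mean stood for it. Of 20380 single-gene probe sets, 20351 matched RefSeq (GRCm38.p6) by gene identifier. limma 3.58.1 in R 4.3.3 was used (intensity trend, two-sided). On data simulated for this comparison over 8433 genes, 38% of genes changed by 0.5 and 88% of those changed by 1 were recovered, with 7 false calls. The simulation drew every gene independently, without array or control level effects, so it does not give the error rate of the real arrays.

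Members and lists were chosen with earlier results of these data known. Genes named from a list were those called, or some of the 2 of smallest p. Others were named after their values were seen: Lyve1, Stab1, Mertk, Aif1, Cd14, Ccr2, Il1b, Spi1, Irf8, Csf1, Il34, Tmem119 and genes below the filter. So were Fcer1a, Tpsab1, Kit and Gata2. Alternatives covered the step between arrays, pseudocount, filter, probe set rule, variance trend, array weights, replicate number, control level and each array left out. Exact permutation tests used all 462 splits, so the smallest possible p is 0.0022. Figures were drawn with matplotlib 3.10.9.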

Additional observations from a re-analysis of the deposited data

Results flagged for a closer look

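An array was singled out where its gap to the nearest array of its group took up more of the group's range than Dixon's 95% limit; 126 group values were examined, 7 were singled out, and chance gives about 1 in 20. For F13a1, Apoe-deficient replicate 5 was low (log2 value 8.60, next 9.42) and so was wild-type replicate 2 (8.44, next 8.83). For Folr2, wild-type replicate 3 was high (8.03, next 7.54). The same Apoe-deficient replicate 5 was low for the endothelial gene Pecam1 (7.43, next 8.15) and the adipocyte gene Fabp4 (10.95, next 12.67). Clec4n was high in Apoe-deficient replicate 4 (8.74, next 7.77), and Apoe was lowest in Apoe-deficient replicate 3 (4.64, next 7.09), where the deposited signal was 7.2.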

How the results depend on the processing

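The count of 163 called genes became 668 with array weights (290 higher, 378 lower), 45 with the level of the hybridisation controls as a block, 35 without the low level and 5 within the high level, and ran from 75 to 266 when 1 array was left out. The count of 2 called marker genes became 6 with array weights, 1 with median centring, a pseudocount of 1, no filter, every probe set tested, no intensity trend or the replicate block, and 0 with the control levels as a block, without the low level or within the high level (limma, unadjusted p below 0.05 for 4, 5 and 5); without 1 array it ran from 0 to 5. The wider resident list had 1, 1 and 1 calls in the last 3 settings and 2 to 6 without 1 array, and the pan-macrophage list 3, 3 and 0 (unadjusted p below 0.05 for 6 in the last) and 5 to 8; these list counts were added after seeing the data. Reversed signs were -0.029 for Pf4 and -0.095 for Adgre1 with the control levels as a block, -0.012 for Pf4 without Apoe-deficient replicate 1, and -0.0028 and -0.00082 for Adgre1 without Apoe-deficient replicate 4 and wild-type replicate 4; without 1 array both ran up to 0.19, Pf4 from -0.012 and Adgre1 from -0.0028. The differences of the other 6 genes stayed above 0 in every fit that held them, while the middle control level alone, with 1 Apoe-deficient array, gave -0.26 for F13a1. The cause of these changes was not tested.

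Replicate numbers recur in both groups, and deviations of same-numbered arrays correlated only at -0.10 to 0.12. Such values cannot show whether these arrays were paired, and the labels do not say. With the replicate block Csf1r gave 0.55 (limma adjusted p = 0.057), Mrc1 0.99 (limma adjusted p = 0.028), and 185 genes were called. Array weights moved the share of calls that were higher from 65% to 43.4%.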
